A study of Rattus norvegicus with 129 samples.

Results

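The genes described here are 9 enzymes of rat liver nitrogen metabolism, the urea cycle genes Cps1, Otc, Ass1, Asl and Arg1 and the amino acid breakdown genes Gls2, Hal, Tdo2 and Hpd. They were taken by name, and their values came from every probe set that the array annotation assigned to one of them. All 9 were measured on each of the 3 array types used, by 17 of 8740 tested probe sets on the first (3 studies), 11 of 31042 on that of the PFOA and PFOS study and 11 of 15866 on that of the Wy-14643 study, so they were 9 of 4736, 14217 and 10411 genes with a probe set of their own. Expression was measured in the livers of 129 rats in 31 groups of 5 studies, with 1 array per rat.

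In the first study, Sprague-Dawley rats of both sexes received phenobarbital at 100 mg/kg, PCN (pregnenolone carbonitrile) at 100 mg/kg or vehicle (methylcellulose with Tween 80) by gavage. A single dose was followed for 6 h or 24 h, and a course of 5 doses, 1 per day, for 24 h, with 5 rats in each group. Phenobarbital is the classical activator of the nuclear receptor CAR and PCN, a steroid nitrile, is the classical ligand of rodent PXR. In the D3T study, 4 female Sprague Dawley rats aged 4 weeks ate a mash diet with 600 mg/kg of 3H-1,2-dithiole-3-thione (D3T), an activator of NRF2, and 4 ate the mash alone. In the 3-week study, 2 female Sprague-Dawley rats aged 60 days received the perfluorinated surfactant PFOS by gavage at 5 mg/kg per day for 21 days and 2 received Tween-20 vehicle. In the study of both perfluoroalkyl acids, male Sprague-Dawley rats aged 10 weeks received PFOA at 20 mg/kg per day, PFOS at 10 mg/kg per day or Alkamuls vehicle by gavage, with 3 rats per group. In the Wy-14643 study, male Wistar Hanover rats received Wy-14643, a ligand of PPARα, at 60 mg/kg per day or carboxymethyl cellulose vehicle for 1, 3 or 7 days, with 3 rats per group, and the label of 1 rat treated for 3 days states no dose. The ages of the rats in the first and the Wy-14643 studies, and the durations of the D3T and the combined PFOA and PFOS studies, are not stated in the labels. The series was assembled to ask whether perfluoroalkyl acids act on genes under CAR and PXR.

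The liver turns the ammonia set free from amino acids into urea. CPS1 joins ammonia and bicarbonate in the mitochondrion, OTC makes citrulline there, and ASS1, ASL and ARG1 complete the cycle in the cytosol, where arginase releases urea. Most of the cycle lies in hepatocytes around the portal vein, together with GLS2, the liver glutaminase that feeds ammonia to CPS1, and HAL, which opens histidine breakdown. TDO2 takes the first step of tryptophan breakdown and HPD the second step of tyrosine breakdown. The genes are known to respond to glucagon and glucocorticoids and to the protein in the diet.

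The deposited values were linear probe-set intensities. They are given here as log2(intensity + 16) after normalization within a study, a scale whose floor is 4.00, and a difference is treated minus control on that scale with its standard error (SE). A gene was called changed where the limma fit over all probe sets of its study gave a Benjamini-Hochberg adjusted p under 0.05, and it was read from its brightest probe set. Vehicle male rat 1003 of the 6 h group was left out throughout. Its values correlated with the mean of the other 4 rats of its group at 0.633, against 0.956 to 0.965 for each of those 4, so that group has n = 4. The known target genes moved with the labels: Cyp2b2 rose by 3.29 to 4.60 over the 6 phenobarbital groups, Cyp3a23-3a1 by 1.04 to 2.18 over the 6 PCN groups, Nqo1 by 2.72 with D3T and Cyp4a1 by 2.67 to 2.78 with Wy-14643. Acot1, a PPARα target, rose by 8.26 with PFOA and differed by 0.37 with PFOS in the same study (adjusted p = 0.831). Hepatocyte markers summed to 24376 to 72334 intensity units per array over the 5 studies and kidney markers to 54.8 to 711. No hepatocyte marker lay at the floor on most arrays of any study, whereas Cd3d of lymphocytes did in all 5. In whole liver, fewer hepatocytes of a kind and less RNA per hepatocyte cannot be told apart.

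Cps1, Ass1 and Asl carry most of the calls below, and their promoters are shown. Cps1 and Ass1 fell together with PCN, though the Cps1 calls were lost with another normalization, as described below. The brightest Asl probe set moved in opposite directions under Wy-14643 and the perfluoroalkyl acids. Its accession is in conflict, and the other Asl probe set was not called with the perfluoroalkyl acids, as described below. Each is the RefSeq sequence of assembly GRCr8 from 250 bases before to 50 after the start, on the gene's own strand. Entries were present for 7 of the 9 genes, Hal and Arg1 being the others, and Gls2 had 2. Capitals in Cps1 mark the reverse complement of the HNF4 motif CAAAGTCCA.
Cps1, chr9:76063613-76063912, plus strand: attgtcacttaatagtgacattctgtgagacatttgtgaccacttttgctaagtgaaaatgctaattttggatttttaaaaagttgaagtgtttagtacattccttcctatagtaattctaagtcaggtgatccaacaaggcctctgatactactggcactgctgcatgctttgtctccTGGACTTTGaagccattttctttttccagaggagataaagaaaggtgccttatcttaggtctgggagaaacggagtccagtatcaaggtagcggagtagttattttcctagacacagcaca
Ass1, chr3:35149480-35149779, plus strand: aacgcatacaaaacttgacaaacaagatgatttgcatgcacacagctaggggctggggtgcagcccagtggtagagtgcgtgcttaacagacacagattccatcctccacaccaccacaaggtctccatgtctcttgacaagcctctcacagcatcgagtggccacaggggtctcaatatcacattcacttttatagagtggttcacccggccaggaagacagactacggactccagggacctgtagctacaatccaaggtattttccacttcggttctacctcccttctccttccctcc
Asl, chr12:32295658-32295957, plus strand: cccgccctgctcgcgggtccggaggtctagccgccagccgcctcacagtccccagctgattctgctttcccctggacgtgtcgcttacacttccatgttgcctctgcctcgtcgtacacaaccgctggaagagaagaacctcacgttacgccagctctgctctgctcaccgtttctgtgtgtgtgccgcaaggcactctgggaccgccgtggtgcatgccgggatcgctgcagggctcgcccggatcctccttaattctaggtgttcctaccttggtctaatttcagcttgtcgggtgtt
The match in Cps1 begins 71 bases before the start, and 131 of 33469 promoters in the table, or 0.391 percent, hold the motif on either strand. None of the 8 member promoters held the cyclic AMP element TGACGTCA (1.83 percent of all promoters), the C/EBP palindrome TTGCGCAA (0.17 percent) or the glucocorticoid receptor motif TGTTCT (20.7 percent), and none held the direct repeat bound by PPARα and HNF4 in its consensus form (0.0538 percent). Both strands were searched, and a palindrome reads the same on each. These letters describe the windows and say nothing on binding.

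Across 19 comparisons of a treated group with its control, the 9 genes fell more often than they rose, and Cps1, Ass1, Asl and Hal made up most of the calls. Phenobarbital lowered 5 of 9 members in males after 5 days (4.89 percent of all probe sets called) and 1 at 24 h (2.3 percent), while 0 were called at 6 h (0.732 percent). In females it called 0 at 6 h (2.61 percent), 0 at 24 h (4.07 percent) and 1, which rose, at 5 days (2.48 percent). PCN called 1 member in males at 6 h, upward (1.9 percent), 2 at 24 h, downward (0.572 percent), and 2 at 5 days, downward (4.74 percent). In females it called 0 at 6 h (2.23 percent), 2 at 24 h, downward (3.7 percent), and 3 downward with 1 upward at 5 days (8.42 percent). Phenobarbital and PCN groups of a sex and time share their vehicle rats, so their counts are not independent of each other.

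In the other studies, D3T lowered 2 members and raised 1 (12.5 percent of probe sets called). PFOA lowered 2 and raised 1 (6.08 percent), PFOS at 10 mg/kg per day raised 1 (0.461 percent), and these 2 comparisons share their vehicle rats. Wy-14643 lowered 4 members at 1 day (11.4 percent), 5 at 3 days (10.8 percent) and 4 at 7 days (13.1 percent), and raised 0 at each. Counted by gene, as the members are, the shares were 13.3 percent with D3T, 8.64 with PFOA and 0.654 with PFOS. They were 12.8, 11.9 and 14.6 percent with Wy-14643 at 1, 3 and 7 days. For phenobarbital and PCN the shares by gene stand beside the wider lists below. PFOS for 3 weeks called 0 of 9 members in limma and 0 percent of probe sets, with 421 probe sets at an unadjusted p under 0.05; this is the smallest comparison, with 2 against 2 rats. The median difference over the 9 genes was -0.23 in males after 5 days of phenobarbital, -0.20 in females after 5 days of PCN and -0.38 after 7 days of Wy-14643, where the median over all genes was 0.00. It was above 0 with phenobarbital at 6 h (0.10 in males, 0.01 in females) and in females after 5 days (0.04). It was also above 0 in PCN males at 6 h (0.14) and with 3-week PFOS (0.10). In every other comparison it was negative, from -0.40 after 1 day of Wy-14643 to -0.02 in PCN females at 6 h.

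**Figure D1:**
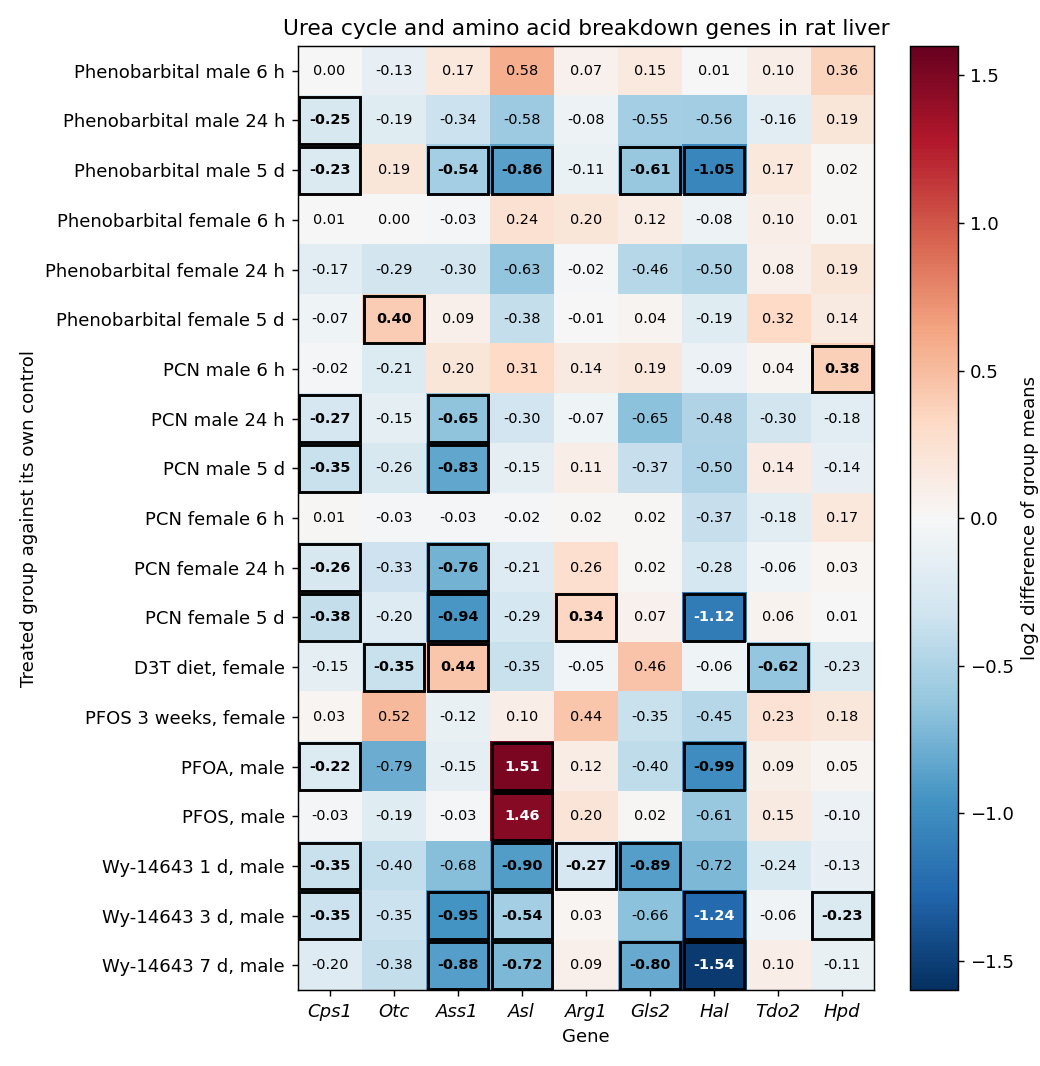
Difference of group means (log2 scale, colour and printed value) for the 9 genes, by treated group against its own control; black frames and bold type mark an adjusted p under 0.05 in limma. Frames gather in the columns of Cps1, Ass1, Asl and Hal, and the strongest colours are Asl at 1.51 with PFOA and Hal at -1.54 after 7 days of Wy-14643.

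Cps1, the enzyme that admits ammonia to the cycle, fell slightly in both sexes from 24 h on with PCN. In PCN females after 5 days Cps1 read 11.51, 11.60, 11.66, 11.70 and 11.75, against 11.93, 12.01, 12.04, 12.07 and 12.07 in vehicle females. All 5 treated rats lay below all 5 controls, a difference of -0.38 (SE 0.06, 1.3-fold lower, adjusted p = 8.08e-07, limma). In males after 5 days the PCN rats read 11.59, 11.68, 11.71, 11.98 and 11.99 and the vehicle rats 11.98, 12.08, 12.20, 12.22 and 12.25. The lowest vehicle rat and the highest PCN rats overlapped, and the difference was -0.35 (SE 0.06, adjusted p = 1.24e-05). At 24 h after 1 dose of PCN, Cps1 fell by 0.27 in males (adjusted p = 0.00717) and 0.26 in females (adjusted p = 0.00332), with no overlap between groups in either sex. At 6 h the differences were -0.02 and 0.01, neither called.

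Phenobarbital lowered Cps1 in males alone by the test, though the sexes were not shown to differ. The fall was 0.25 at 24 h (adjusted p = 0.00574) and 0.23 after 5 days (adjusted p = 0.00774), and the highest phenobarbital male equalled the lowest vehicle male at 24 h while the groups overlapped after 5 days. Phenobarbital females differed by -0.17 at 24 h (adjusted p = 0.107) and -0.07 after 5 days (adjusted p = 0.858). The 5-day difference between the sexes was 0.16 (95 percent interval -0.01 to 0.32, adjusted p = 0.72).

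With Wy-14643, Cps1 read 12.51, 12.58 and 12.74 at 1 day against 12.92, 12.94 and 13.03 in vehicle rats, and 12.42, 12.63 and 12.70 at 3 days against 12.93, 12.93 and 12.94. The groups stood apart at both times, with falls of 0.35 (SE 0.08, adjusted p = 0.0137) and 0.35 (SE 0.08, adjusted p = 0.0157). At 7 days the difference was -0.20, with overlap and no call (adjusted p = 0.13). PFOA rats read 12.72, 12.72 and 12.77 and their vehicle rats 12.93, 12.97 and 12.97, a fall of 0.22 (SE 0.05, adjusted p = 0.0432). PFOS rats of that study read 12.84, 12.97 and 12.98, within reach of the vehicle values. D3T and 3-week PFOS differed from control by -0.15 and 0.03, neither called.

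A further Cps1 probe set on the first array, M11710cds_s_at, tracked the brightest one over 89 arrays at r = 0.85 and gave larger differences in the comparisons that follow here. It fell by 0.70 in PCN females (adjusted p = 3.13e-05), 0.77 in PCN males (adjusted p = 1.29e-05) and 0.50 in phenobarbital males (adjusted p = 0.00891), all after 5 days. It also fell by 0.52 with D3T (adjusted p = 0.0265). At 24 h after PCN it was not called in males (adjusted p = 0.177) or females (adjusted p = 0.125). The other Cps1 probe set lay at or under 0 on 53 of the 89 arrays and gives no level. On the array of the Wy-14643 study, probe set 1370151_at fell at 1 day of Wy-14643 (-0.57, adjusted p = 0.00851) and differed by -0.37 at 3 days (adjusted p = 0.0683).

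The small Cps1 differences depended on the processing. With median scaling in place of quantile normalization, every Cps1 call with phenobarbital and PCN was lost, at adjusted p = 0.616 and 0.83 for phenobarbital males at 24 h and 5 days, 1 and 0.693 for PCN males and females at 24 h, and 0.155 and 0.196 at 5 days. Without vehicle rat 1010 the call in PCN males at 24 h was lost (adjusted p = 0.0534), and the PFOA call was lost without any 1 of its 6 arrays (adjusted p 0.0834 to 0.129). The Wy-14643 call at 1 day was lost without vehicle rat 22 or treated rat 03 or 04 (adjusted p 0.0106 to 0.0568 over all left out in turn), and that at 3 days without treated rat 08 (adjusted p = 0.0645).

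Otc, which makes citrulline, was called in 2 treatment comparisons and in opposite directions. In phenobarbital females after 5 days it read 10.84, 10.88, 10.91, 11.04 and 11.14, against 10.06, 10.61, 10.62, 10.67 and 10.82 in vehicle females. Every treated rat lay above every control, a rise of 0.40 (SE 0.12, 1.32-fold, adjusted p = 0.0386, limma). The lowest vehicle rat, 1514, stood apart from its group, and without it the difference was 0.28 (adjusted p = 0.335). The call was also lost without vehicle rat 1513 or phenobarbital rat 4511, 4512, 4513 or 4514 (adjusted p 0.0161 to 0.335 over all arrays left out in turn).

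With D3T, Otc read 9.97, 10.03, 10.24 and 10.26 against 10.41, 10.45, 10.50 and 10.56 on the control diet. The groups stood apart, a fall of 0.35 (SE 0.08, adjusted p = 0.0331). The second Otc probe set differed by 0.03 (adjusted p = 1), and median scaling gave -0.11 (adjusted p = 0.883). The call was lost without any of 6 of the 8 arrays (D3T rats 1 and 4 and each control), with adjusted p 0.0314 to 0.0861 over all left out in turn.

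In the males of the perfluoroalkyl study Otc read 11.28, 11.67 and 12.03 with PFOA and 12.23, 12.26 and 12.27 with PFOS, against 12.28, 12.45 and 12.60 in vehicle rats. PFOA and PFOS rats all lay below the vehicle rats, and neither passed the test (-0.79, adjusted p = 0.0598, and -0.19, adjusted p = 0.764). Wy-14643 gave differences of -0.40, -0.35 and -0.38 at 1, 3 and 7 days, none called (adjusted p = 0.0824, 0.129 and 0.09). PCN gave differences between -0.33 and -0.03 over sexes and times, none called. In the 3-week study PFOS rats read 10.70 and 11.16 and vehicle rats 10.31 and 10.51, a difference of 0.52 (adjusted p = 1).

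Ass1, which joins citrulline and aspartate, fell with PCN in both sexes and with Wy-14643, and rose with D3T. After 5 days of PCN, females read 9.93, 10.53, 10.62, 11.19 and 11.21 and their vehicle rats 11.46, 11.57, 11.67, 11.67 and 11.78. The treated rats were widely spread and all below the controls, a fall of 0.94 (SE 0.14, 1.91-fold, adjusted p = 4.59e-07). PCN males read 10.76, 10.95, 11.03, 11.11 and 11.17 against 11.72, 11.74, 11.75, 11.87 and 12.07, again without overlap, a fall of 0.83 (SE 0.14, 1.77-fold, adjusted p = 2.28e-05). The sexes differed in this effect by -0.11 (95 percent interval -0.51 to 0.29, adjusted p = 1).

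The fall of Ass1 was present 24 h after a single dose. PCN females then read 10.43, 10.93, 11.05, 11.11 and 11.11 against 11.44, 11.58, 11.75, 11.83 and 11.84, a fall of 0.76 (adjusted p = 1.50e-04), and PCN males 10.57, 11.15, 11.17, 11.23 and 11.43 against 11.52, 11.69, 11.78, 11.90 and 11.91, a fall of 0.65 (adjusted p = 0.00582). Neither pair overlapped. In males the call was lost without PCN rat 5006 (adjusted p = 0.0874) and with median scaling (adjusted p = 0.332). At 6 h the differences were 0.20 in males and -0.03 in females, not called.

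Phenobarbital lowered Ass1 in males after 5 days, from 11.72, 11.74, 11.75, 11.87 and 12.07 to 11.07, 11.18, 11.34, 11.36 and 11.50. The groups stood apart, a difference of -0.54 (SE 0.14, adjusted p = 0.0108), which median scaling took to -0.44 (adjusted p = 0.162). Phenobarbital females read 11.53, 11.58, 11.76, 11.80 and 11.92, overlapping their vehicle rats, with a difference of 0.09. The effect in females minus that in males was 0.63 (95 percent interval 0.23 to 1.03, adjusted p = 0.325).

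**Figure D2:**
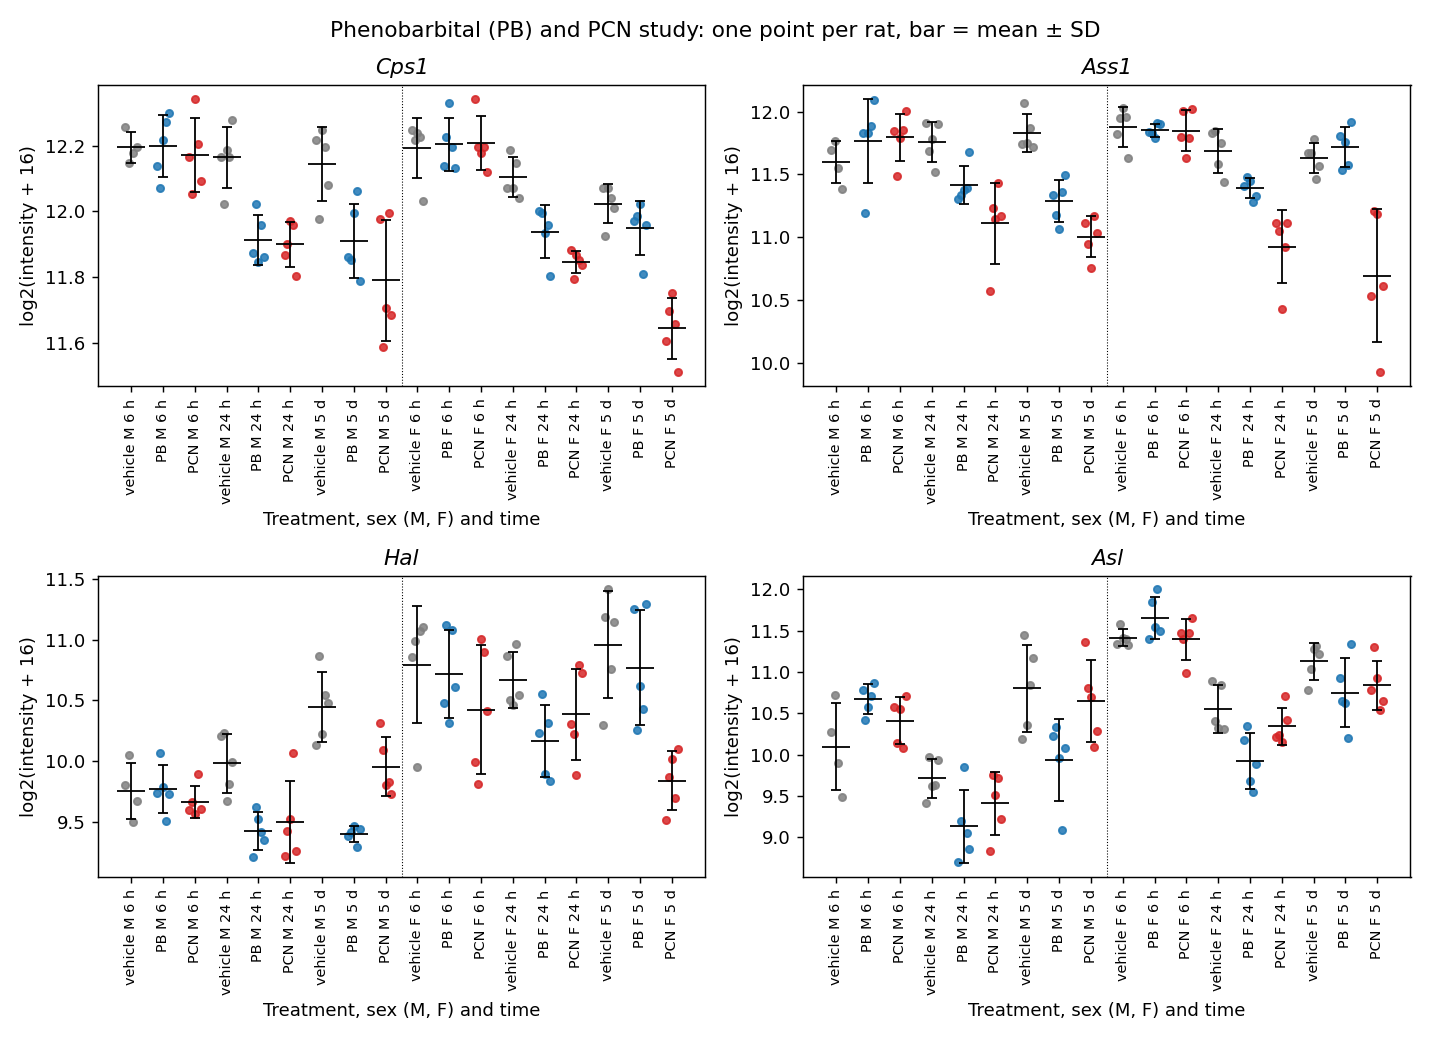
Cps1, Ass1, Hal and Asl in each rat of the phenobarbital and PCN study, as log2(intensity + 16), by treatment, sex and time; points are rats (n = 5, and 4 for vehicle males at 6 h) and bars are mean ± SD. Ass1 in PCN females after 5 days lies between 9.93 and 11.21, below all vehicle females, and Asl in vehicle rats changes with time as well.

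With Wy-14643, Ass1 read 12.55, 13.03 and 13.18 at 1 day, 12.22, 12.52 and 13.23 at 3 days and 12.51, 12.62 and 12.99 at 7 days. Vehicle rats stayed between 13.53 and 13.67 over the 3 times. All 9 treated rats lay below all 9 vehicle rats, and the differences were -0.68 (adjusted p = 0.0665, not called), -0.95 (adjusted p = 0.015) and -0.88 (adjusted p = 0.0185). The call at 3 days was lost without treated rat 07 or 08 (adjusted p = 0.0698 and 0.06), and that at 7 days without vehicle rat 34 or treated rat 13 or 14 (adjusted p = 0.0582, 0.0703 and 0.0572). D3T rats read 11.36, 11.52, 11.52 and 11.55 against 10.88, 11.07, 11.07 and 11.16, above every control, a rise of 0.44 (SE 0.07, adjusted p = 0.0114). PFOA and PFOS males differed by -0.15 and -0.03, and 3-week PFOS females by -0.12, with overlap and no call in each.

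Asl, which splits argininosuccinate into arginine and fumarate, had the largest rises and some of the larger falls among the 9. In the perfluoroalkyl study it read 11.54, 11.99 and 12.04 with PFOA at 20 mg/kg per day and 11.74, 11.81 and 11.89 with PFOS at 10 mg/kg per day. The vehicle rats read 10.14, 10.44 and 10.48. Both treated groups lay more than 1 log2 unit above every vehicle rat, with rises of 1.51 (SE 0.15, 2.84-fold, adjusted p = 0.00531) and 1.46 (SE 0.15, 2.75-fold, adjusted p = 0.0281). The doses differ and the vehicle rats are shared, so the compounds were not compared with each other. The PFOS call was lost without any 1 of its 6 arrays (adjusted p 0.0554 to 0.0854).

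These Asl values came from 1367754_s_at, which the annotation assigns to Asl but lists under an accession that RefSeq gives to Hnrnpab. The other probe set, 1368916_at, is listed under an accession of Asl and correlated with it at r = 0.81 over the 9 arrays. It differed by 1.33 with PFOA (SE 0.48, adjusted p = 0.178) and 1.00 with PFOS (SE 0.48, adjusted p = 0.482). It pointed the same way with a wider error and was not called, so the rise of Asl rests on the probe set with the conflicting accession.

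With Wy-14643 Asl fell at each time. It read 9.75, 9.95 and 10.04 at 1 day against 10.63, 10.80 and 10.99, 9.94, 10.16 and 10.40 at 3 days against 10.52, 10.69 and 10.92, and 9.78, 9.92 and 10.10 at 7 days against 10.59, 10.67 and 10.70. Treated and vehicle rats did not overlap at any time, and the falls were 0.90 (adjusted p = 0.00118), 0.54 (adjusted p = 0.0239) and 0.72 (adjusted p = 0.00379). Here 1368916_at fell by 0.86, 0.70 and 0.78 (adjusted p = 0.00366, 0.0127 and 0.00524), so both probe sets of Asl were called at all 3 times. The call of the brighter one at 3 days was lost without vehicle rat 26 or 29 or treated rat 07 or 08 (adjusted p 0.0101 to 0.111 over all left out in turn).

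In the phenobarbital and PCN study Asl fell in phenobarbital males after 5 days. The treated males read 9.09, 9.96, 10.08, 10.23 and 10.33 and the vehicle males 10.19, 10.36, 10.85, 11.16 and 11.45. The groups overlapped through the highest treated rats, with a difference of -0.86 (SE 0.22, 1.82-fold lower, adjusted p = 0.00872), lost without vehicle rat 1012 (adjusted p = 0.0644) or treated rat 4014 (adjusted p = 0.0853). The second probe set, AB016536_s_at, fell by 0.89 (adjusted p = 0.00137) and also in females at 24 h by 0.69 (adjusted p = 0.0222), where the brighter one gave -0.63 (adjusted p = 0.105). At 6 h in males the difference was 0.58 (adjusted p = 0.356), so the effect at 5 days minus that at 6 h was -1.44 (adjusted p = 0.0133). PCN differences of Asl ran from -0.30 to 0.31, and D3T and 3-week PFOS gave -0.35 and 0.10, none called.

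Arg1, the arginase that releases urea, was called in 2 treatment comparisons, in opposite directions. It rose in PCN females after 5 days, which read 11.18, 11.25, 11.27, 11.42 and 11.48 against 10.85, 10.92, 10.96, 10.97 and 11.23 in vehicle females. The highest vehicle rat overlapped the lowest treated rat, and the rise was 0.34 (SE 0.09, adjusted p = 0.00974), lost without treated rat 5514 (adjusted p = 0.0507). In the same animals Cps1 and Ass1 fell. With Wy-14643 at 1 day Arg1 read 12.63, 12.78 and 12.93 against 12.98, 13.03 and 13.12, a fall of 0.27 (adjusted p = 0.036) that was lost without any array but treated rat 05 (adjusted p 0.013 to 0.128 over all left out in turn), and at 3 and 7 days it differed by 0.03 and 0.09. All 3 PFOS males read 13.41, above the vehicle rats at 13.15, 13.21 and 13.25, a difference of 0.20 that was not called (adjusted p = 0.185). PFOA, D3T and 3-week PFOS gave 0.12, -0.05 and 0.44, none called.

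Gls2, the liver glutaminase, fell with Wy-14643 and in phenobarbital males. At 1 day of Wy-14643 it read 10.94, 11.34 and 11.36 against 12.01, 12.06 and 12.23, and at 7 days 10.84, 11.23 and 11.48 against 11.84, 11.88 and 12.24. Neither pair overlapped, with falls of 0.89 (SE 0.21, adjusted p = 0.0153) and 0.80 (SE 0.21, adjusted p = 0.0233). At 3 days the difference was -0.66 with 1 treated rat level with a vehicle rat (adjusted p = 0.0639). The call at 1 day was lost without vehicle rat 24 or treated rat 04 (adjusted p = 0.0589 and 0.0615), and that at 7 days without vehicle rat 34 or treated rat 13 or 14 (adjusted p = 0.09, 0.0939 and 0.0501).

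Phenobarbital males after 5 days read 8.39, 8.47, 8.64, 8.95 and 8.99 for Gls2, against 8.96, 9.19, 9.23, 9.46 and 9.63 in vehicle males. They overlapped by a narrow margin, with a fall of 0.61 (adjusted p = 0.0359). The call was lost without vehicle rat 1012, 1013 or 1014 or treated rat 4011, 4012 or 4015 (adjusted p 0.0215 to 0.126 over all left out in turn). PCN males differed by -0.65 at 24 h (adjusted p = 0.0799) and PCN females by 0.02, and D3T rats by 0.46 with all 4 above all 4 controls (adjusted p = 0.0707). PFOA, PFOS and 3-week PFOS gave -0.40, 0.02 and -0.35, none called.

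Hal, which removes ammonia from histidine, had the largest falls of the 9. After 7 days of Wy-14643 it read 9.43, 9.63 and 9.63 against 10.91, 11.14 and 11.25. The gap between the groups was over 1 log2 unit, and the fall was 1.54 (SE 0.28, 2.9-fold, adjusted p = 0.00277). At 3 days it read 9.28, 9.59 and 10.46 against 10.85, 10.93 and 11.28, a fall of 1.24 (adjusted p = 0.0128), lost without vehicle rat 29 or treated rat 07 or 08 (adjusted p = 0.0553, 0.0636 and 0.0537). At 1 day the difference was -0.72 (adjusted p = 0.123). The differences grew from 1 to 7 days in size, but the 7-day effect minus the 1-day effect was -0.82 and did not pass (adjusted p = 0.358).

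**Figure D3:**
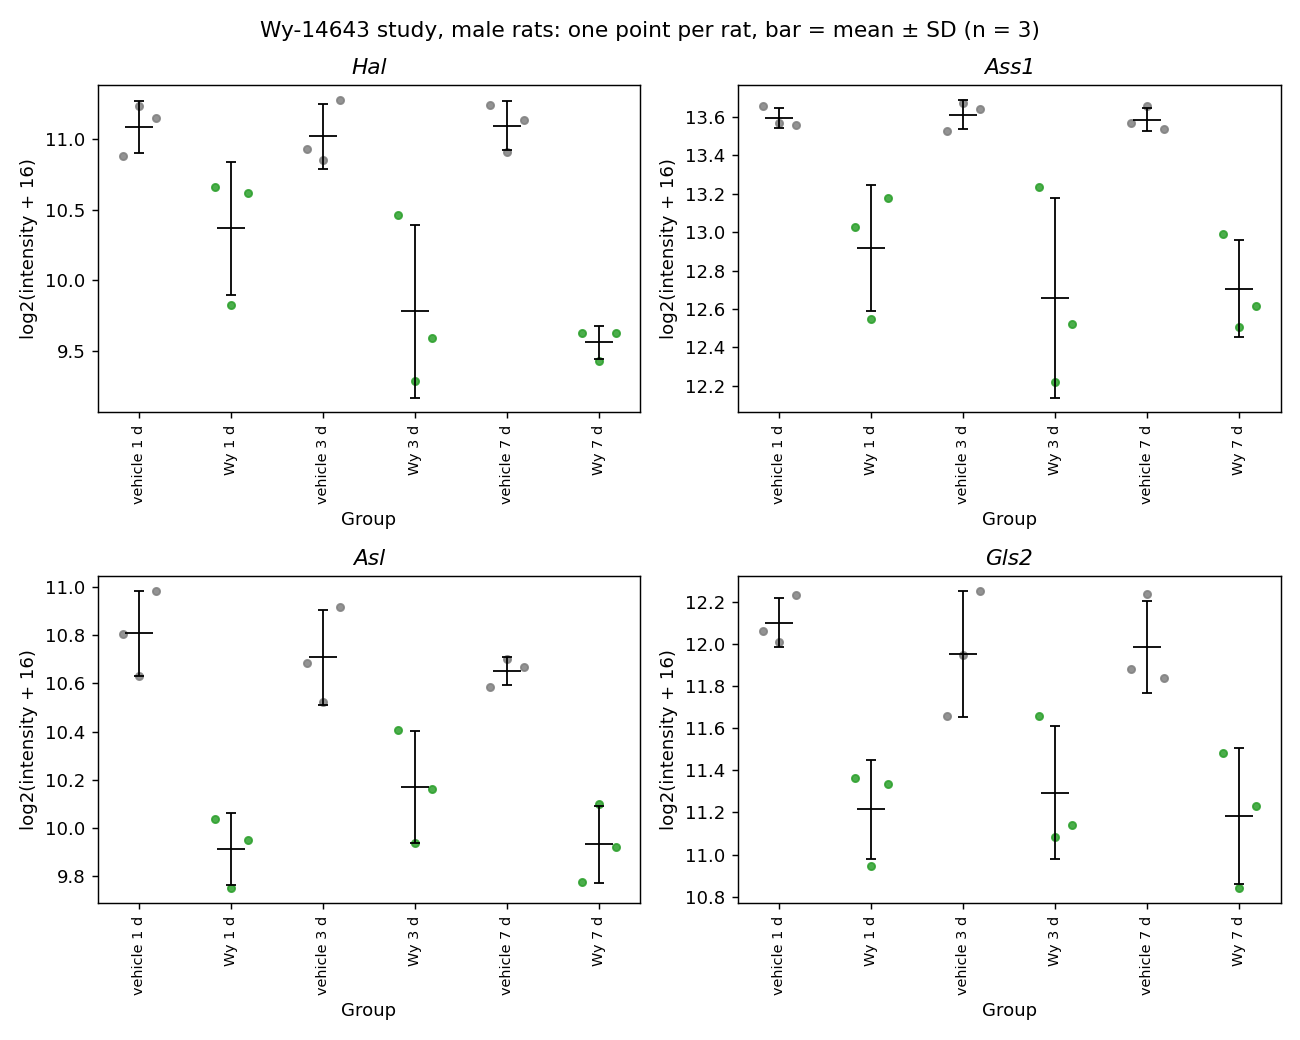
Hal, Ass1, Asl and Gls2 in each rat of the Wy-14643 study, as log2(intensity + 16), at 1, 3 and 7 days; points are rats and bars are mean ± SD (n = 3). Treated and vehicle rats do not overlap for Hal, Ass1 and Asl at any time, and the Hal values at 7 days lie between 9.43 and 9.63 against 10.91 to 11.25.

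Hal fell by about 1 log2 unit in phenobarbital males and in PCN females. Phenobarbital males after 5 days read 9.29, 9.38, 9.42, 9.44 and 9.46 and their vehicle rats 10.13, 10.22, 10.48, 10.54 and 10.87. The treated rats were tightly grouped below all controls, a fall of 1.05 (SE 0.20, 2.07-fold, adjusted p = 2.20e-04). PCN females read 9.51, 9.69, 9.87, 10.02 and 10.10 and their vehicle rats 10.30, 10.76, 11.15, 11.19 and 11.41, again apart, a fall of 1.12 (SE 0.20, 2.17-fold, adjusted p = 2.70e-05). Both calls kept their side of the threshold under every alternative processing tried and without any single array. The second probe set, AB002393_g_at, fell by 1.24 in those males (adjusted p = 0.0165) and differed by -0.96 in those females (adjusted p = 0.064). A dimmer one, AB002393_at (mean 5.57), tracked the brightest at only r = 0.29 over 89 arrays, and its differences are not given.

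In the other sex, Hal differed by -0.19 in phenobarbital females (adjusted p = 0.99) and -0.50 in PCN males (adjusted p = 0.161). The effect in females minus that in males was 0.86 for phenobarbital (95 percent interval 0.28 to 1.43, adjusted p = 0.404) and -0.63 for PCN (95 percent interval -1.20 to -0.05, adjusted p = 0.467). Neither sex difference passed. PFOA males read 9.27, 9.30 and 9.64 against 10.06, 10.48 and 10.63, a fall of 0.99 (adjusted p = 0.0489) lost without any 1 of the 6 arrays (adjusted p 0.0604 to 0.147). PFOS males read 9.49, 9.73 and 10.13, with 1 rat above the lowest vehicle rat and a difference of -0.61 (adjusted p = 0.336). D3T gave -0.06 and 3-week PFOS -0.45, neither called.

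**Figure D4:**
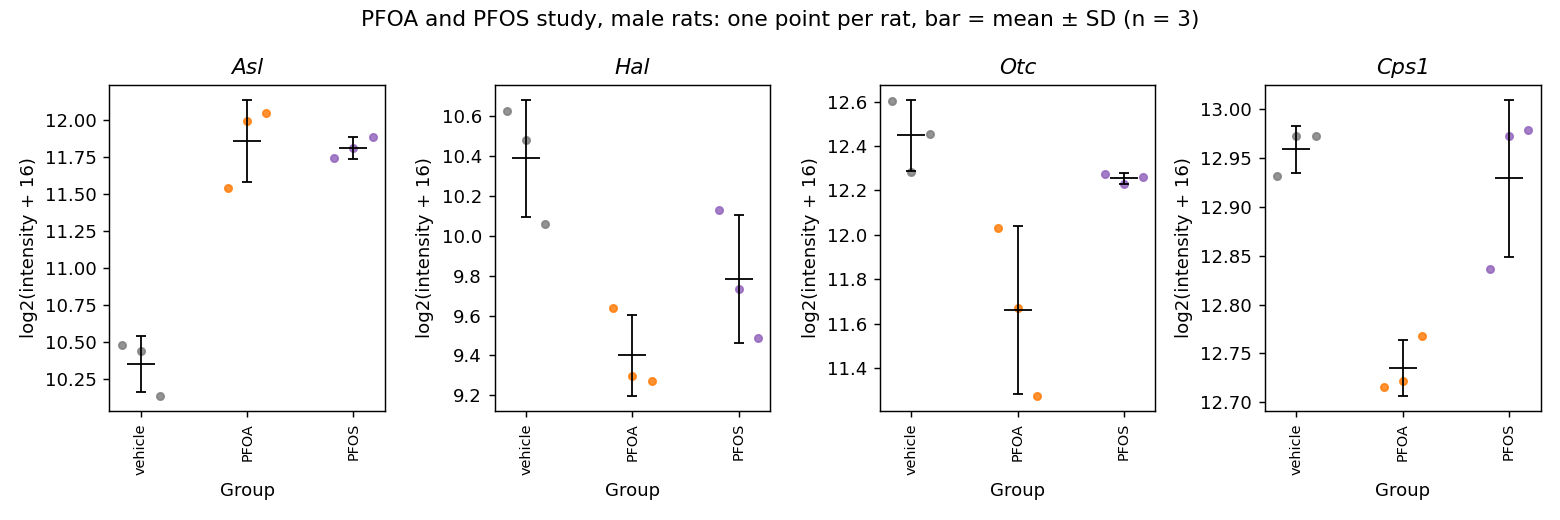
Asl, Hal, Otc and Cps1 in each male rat of the PFOA and PFOS study, as log2(intensity + 16); points are rats and bars are mean ± SD (n = 3 per group, with shared vehicle rats). Asl lies between 11.54 and 12.04 in both treated groups against 10.14 to 10.48 in vehicle rats, while Hal, Otc and Cps1 are lowest with PFOA.

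Tdo2, the tryptophan dioxygenase, was called once. D3T rats read 11.07, 11.10, 11.25 and 11.32 and control rats 11.59, 11.75, 11.85 and 12.04. The groups did not overlap, a fall of 0.62 (SE 0.11, 1.54-fold, adjusted p = 0.0143). A block on the diet groups' rat numbers, which did not pair the rats, ended this call and those of Ass1 and Otc (adjusted p = 0.055, 0.0935 and 0.16). With median scaling the difference was -0.04 (adjusted p = 1), so the fall of Tdo2 depends on how those 8 arrays, whose medians spread over 1.73 log2 units, are brought together. In the other 18 treatment comparisons Tdo2 differed by -0.30 to 0.32, none called.

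Hpd, the hydroxyphenylpyruvate dioxygenase of tyrosine breakdown, rose 6 h after PCN in males. Treated males read 12.25, 12.38, 12.52, 12.62 and 12.66 and vehicle males 11.95, 11.96, 12.12 and 12.39. The groups overlapped, with a rise of 0.38 (adjusted p = 0.0194), lost without vehicle rat 1001, 1004 or 1005 or treated rat 5001 or 5003 (adjusted p 0.0042 to 0.132 over all left out in turn). Probe set AF082834_s_at differed by 0.21 there (adjusted p = 0.2). The PCN effect on Hpd in males was lower by 0.56 at 24 h (adjusted p = 0.0345) and by 0.52 after 5 days (adjusted p = 0.0417) than at 6 h.

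Phenobarbital males at 6 h differed by 0.36 for Hpd against the same vehicle rats (adjusted p = 0.0513). Wy-14643 at 3 days lowered Hpd from 13.40, 13.51 and 13.53 to 13.19, 13.23 and 13.32, a fall of 0.23 without overlap (adjusted p = 0.0119), lost without vehicle rat 29 or treated rat 07 (adjusted p = 0.0512 and 0.06). At 1 and 7 days Hpd differed by -0.13 and -0.11, with the groups apart and no call.

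Phenobarbital and PCN were given at the same dose, so they could be set against each other directly in 6 pairs of groups, and both effects rest on the same vehicle rats, which cancel here. After 5 days in females 5 of 9 members differed (6.9 percent of probe sets called). Ass1 stood 1.02 higher with phenobarbital than with PCN (SE 0.14, adjusted p = 1.03e-07), Hal 0.93 higher (adjusted p = 0.00102), Otc 0.61 higher (adjusted p = 1.44e-04), Cps1 0.31 higher (adjusted p = 1.57e-04) and Arg1 lower (-0.35, adjusted p = 0.00903). The Arg1 call was lost without phenobarbital rat 4511 or PCN rat 5514 (adjusted p = 0.0697 and 0.0502). For Asl the interval was -0.53 to 0.35 and for Gls2 -0.39 to 0.34, which hold 0. In males after 5 days only Otc passed among the 9 (3.05 percent called), 0.45 higher with phenobarbital (adjusted p = 0.0152), a call lost without treated rat 4014, 5012 or 5013 (adjusted p 0.00549 to 0.148 over all left out in turn). For Asl the difference was -0.71 (interval -1.15 to -0.27, adjusted p = 0.0583).

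At 24 h each sex had 1 member that separated the compounds. In females it was Ass1, 0.46 higher with phenobarbital (adjusted p = 0.0412, 4.45 percent called), and without PCN rat 5508 the difference was 0.34 (adjusted p = 0.152). It was lost as well without any of phenobarbital rats 4506 to 4509 or PCN rat 5509. In males it was Hpd, 0.38 higher with phenobarbital (adjusted p = 0.0167, 1.19 percent called), lost without rat 4007, 4009 or 5010 (adjusted p 0.00465 to 0.0874 over all left out in turn) and with median scaling (adjusted p = 0.838). At 6 h 0 of 9 members separated the compounds in males (0.355 percent called) or females (6.91 percent called).

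The effects on the 9 genes were not shown to differ between the sexes. Of the 6 tests of females minus males, 0 called a member, for phenobarbital at 6 h, 24 h and 5 days (1.02, 0.0114 and 0.103 percent of probe sets called) and for PCN at the same times (0.0458, 0.0229 and 0.606 percent). The largest of these differences was Hal with phenobarbital after 5 days, given above. For Gls2 it was 0.65 there (interval 0.13 to 1.17).

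With quantile normalization, the effect of PCN differed between sampling times. The 5-day groups had 5 doses and the 6 h groups 1, so number of doses and time cannot be told apart there. In females the effect after 5 days minus that at 6 h was -0.91 for Ass1 (adjusted p = 0.00308) and -0.40 for Cps1 (adjusted p = 0.00176), 2 of 9 members (2.36 percent called), and 0 of 9 passed for 24 h minus 6 h (0.263 percent). In males the same difference was -1.02 for Ass1 (adjusted p = 0.00509) and -0.33 for Cps1 (adjusted p = 0.0419), and with Hpd 3 of 9 passed (0.698 percent). At 24 h minus 6 h in males Ass1 (-0.84, adjusted p = 0.0417) and Hpd passed (0.309 percent). For phenobarbital, Asl in males was the 1 member whose effect after 5 days differed from that at 6 h (0.572 percent), and 0 of 9 did at 24 h in males (0.16 percent), at 24 h in females (2.89 percent) or after 5 days in females (2.43 percent). In males the Cps1, Hpd and 24 h Ass1 differences were each lost without any of 12 or more of the rats involved, with adjusted p 0.013 to 0.129, 0.00949 to 0.126 (Hpd at 5 days), 0.0155 to 0.133 (Hpd at 24 h) and 0.0246 to 0.155, and that of Asl was lost without vehicle rat 1005 or phenobarbital rat 4014 (adjusted p = 0.0775 and 0.0622). With median scaling every PCN time difference lost its call, Ass1 after 5 days at adjusted p = 0.0961 in males and 0.101 in females. The Wy-14643 effect at 3 or 7 days minus that at 1 day called 0 of 9 members (0.592 and 1.89 percent).

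Levels also differed between vehicle groups, by sex and by time. Asl in the 6 h vehicle groups read 11.33, 11.34, 11.41, 11.41 and 11.59 in females and 9.49, 9.90, 10.28 and 10.72 in males. All females lay above all males, by 1.32 (2.49-fold, adjusted p = 3.18e-05). Hal was 1.04 higher in females (adjusted p = 4.74e-04), Hpd 0.51 higher (adjusted p = 1.27e-04) and Otc lower by 0.52 (-0.52, adjusted p = 0.00256), 4 of 9 members (6.51 percent called). At 24 h Asl (0.84, adjusted p = 0.0104), Hal (0.69, adjusted p = 0.0297) and Hpd (0.30, adjusted p = 0.0413) were higher in females, 3 of 9 (5.15 percent called). The Hal call was lost without male 1008 or 1009 or female 1506 or 1509, and the Hpd call without those or female 1507 or 1508 (adjusted p 0.0272 to 0.105 and 0.0326 to 0.149 over all left out in turn). In the 5-day groups Otc alone of the 9 passed, lower in females (-0.36, adjusted p = 0.0474, 5.33 percent called), a call lost without female 1514 (adjusted p = 0.328) or any of 6 other rats.

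**Figure D5:**
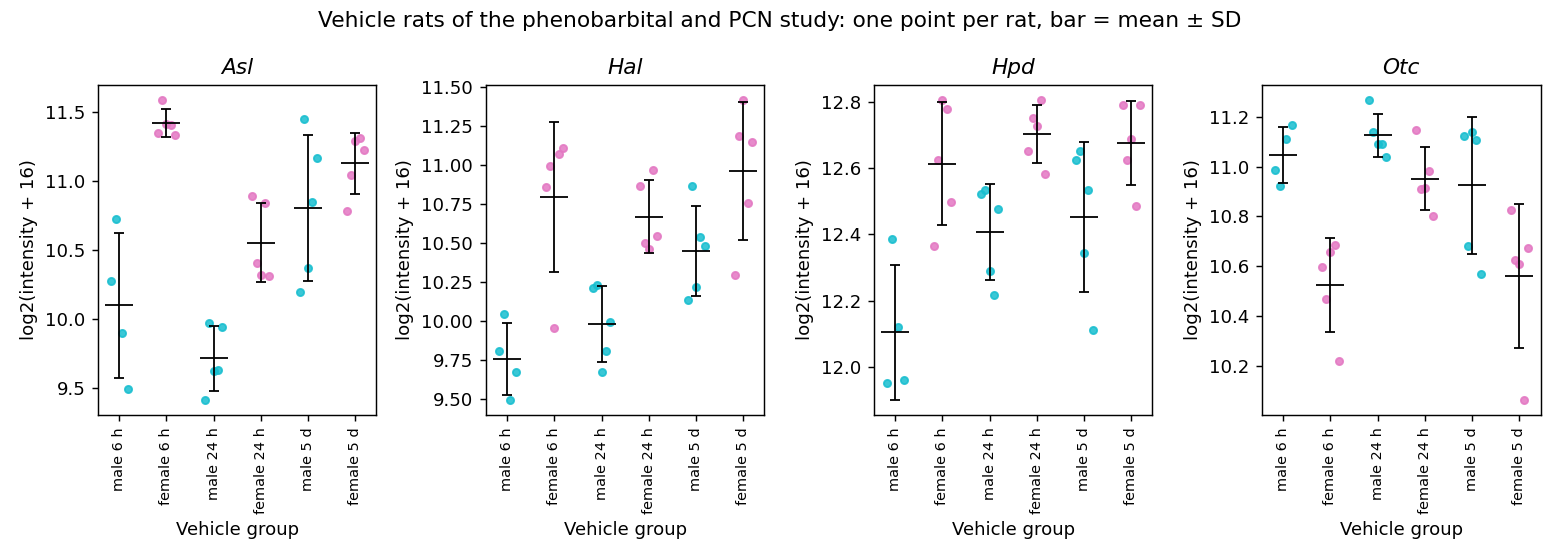
Asl, Hal, Hpd and Otc in each vehicle rat of the phenobarbital and PCN study, as log2(intensity + 16), by sex and time; points are rats and bars are mean ± SD (n = 5, and 4 for males at 6 h). Female Asl lies between 11.33 and 11.59 in the 6 h group, above all males of that group, and is lower in the 24 h group.

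Between vehicle groups of 1 sex, Asl again moved most. In females it was lower at 24 h than at 6 h by 0.86 (adjusted p = 0.0097), as was Arg1 by 0.36 (adjusted p = 0.0112), while Otc was higher by 0.43 (adjusted p = 0.0177), 3 of 9 (3.79 percent called). Arg1 was not called without female 1501 or 1506 (adjusted p = 0.059 and 0.0767), nor Otc without 1505 or 1506 (adjusted p = 0.102 and 0.078). In males 24 h minus 6 h called 0 of 9 (0.4 percent). After 5 days Asl in vehicle males was 1.09 higher than in the 24 h group (adjusted p = 0.00127, 1 of 9, 1.6 percent called), and in females 0 of 9 passed (0.629 percent). The order of Asl over the 6 vehicle groups ran from males at 24 h (9.71 ± 0.23, SD, n = 5) through males at 6 h (10.10 ± 0.53, n = 4), females at 24 h (10.55 ± 0.29), males at 5 days (10.80 ± 0.53) and females at 5 days (11.13 ± 0.22) to females at 6 h (11.42 ± 0.10). Ranges of neighbours in this order overlapped, except for females at 6 h, whose lowest rat lay just above the highest female at 5 days but below the highest male at 5 days.

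Of 74 further gene symbols of amino acid metabolism, 41 were measured on the first array type, 67 on that of the PFOA and PFOS study and 60 on that of the Wy-14643 study, and in most comparisons more of these fell than rose. The 74 include old and current symbols of the same gene (Mut and Mmut, Ccbl1 and Kyat1), so they stand for fewer genes. The share of all genes called in the same comparison stands beside each count. PCN females after 5 days had 13 lower and 2 higher of 41 (9.25 percent of all genes), among them Sds, serine dehydratase (-4.73, adjusted p = 2.29e-04), Cth, which makes cysteine (-1.32), and Gnmt, glycine methyltransferase (-1.07). PCN males had 7 lower and 2 higher (5.41 percent), with Sds at -4.94 and Odc1, ornithine decarboxylase, at 1.30. Phenobarbital males after 5 days had 6 lower and 2 higher (5.03 percent), led by Agxt, which detoxifies glyoxylate (-1.04), Oat, ornithine aminotransferase (-0.94) and Glul, glutamine synthetase (-0.92). At 24 h, phenobarbital had 5 lower and 0 higher in males (2.24 percent) and 4 lower and 1 higher in females (4.05 percent), with Sds at -4.71 and -4.06. PCN at 24 h had 3 lower in males (0.486 percent) and 2 in females (3.61 percent), with 0 higher. At 6 h, phenobarbital raised 2 in females (2.68 percent) and called 0 in males (0.823 percent), and PCN had 3 lower and 1 higher in males (2.09 percent) and 1 each way in females (2.3 percent). Phenobarbital females after 5 days had 2 lower and 0 higher (2.55 percent), Glul (-0.91) and Glud1 (-0.41), where 1 of the 9 members had risen. Glul, which takes up the ammonia that escapes the cycle, thus fell with phenobarbital in both sexes after 5 days (adjusted p = 1.88e-05 in males and 3.71e-05 in females).

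With D3T, 6 of 41 were lower and 2 higher, where 13.3 percent of all genes were called, with Oat at -1.68 and Cth at 1.35. PFOA lowered 9 and raised 4 of 67 (8.64 percent of all genes), with Asns, asparagine synthetase, at 3.53, Sds at 2.21 and Hgd, the homogentisate dioxygenase that follows HPD, at -1.87. PFOS called 0 of 67 (0.654 percent), and 3-week PFOS 0 of 41, where 0 percent of all genes were called. Sds fell with PCN and rose with PFOA, as values of separate studies. Wy-14643 lowered 10, 8 and 11 and raised 5, 3 and 7 of 60 at 1, 3 and 7 days, where 12.8, 11.9 and 14.6 percent of all genes were called, with Prodh, proline dehydrogenase, at -2.23, -2.27 and -1.83, and Asns at 3.64 at 7 days.

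Zonal and other cell markers moved in the same comparisons, here given as summed intensity of the list in treated against control rats. The shares of all genes called that stand beside the wider lists hold for these counts too. With phenobarbital and PCN they ran from 0.486 percent (PCN males at 24 h) to 9.25 percent (PCN females after 5 days). The 4 measured periportal markers were Sds, Pck1, Alb and Cyp2f4, of which Sds is also 1 of the 74 symbols above and Alb also a hepatocyte marker. With phenobarbital at 24 h, 1 of 4 periportal markers was lower in males, Sds (13498 to 15336 against 15904 to 18453), and 2 of 4 in females, Sds and Pck1 (12863 to 14478 against 14559 to 16464). With PCN, 1 of 4 was lower in both sexes at 6 h (14499 to 18597 against 18750 to 21416 in males and 13889 to 14695 against 14964 to 18008 in females), in males at 24 h (14396 to 16682 against 15904 to 18453) and in both sexes after 5 days (14333 to 17258 against 18482 to 19529 in males and 14753 to 15603 against 14916 to 17571 in females). The marker was Cyp2f4 at 6 h and Sds later. The summed levels did not overlap with those of vehicle rats with phenobarbital at 24 h, with PCN at 6 h and in PCN males after 5 days, and overlapped in PCN males at 24 h and PCN females after 5 days. Phenobarbital also lowered Alb, 1 of 4, in males after 5 days (13828 to 18670 against 18482 to 19529) and raised Pck1, 1 of 4, in females at 6 h (17324 to 23256 against 14964 to 18008), and the summed levels overlapped in each.

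The 5 measured pericentral markers were Glul, Oat, Cyp2e1, Cyp1a2 and Slc1a2. Glul and Oat are also among the 74 symbols above, so their calls count in both places in every study. Of these 5 markers, 3 were lower in phenobarbital males after 5 days (5374 to 8676 against 8776 to 13616), 1 in phenobarbital females (7061 to 11936 against 12122 to 14998) and 2 in PCN females (8219 to 10845 against 12122 to 14998), with no overlap, and 1 in PCN males, with overlap. At 24 h phenobarbital lowered 1 of 5 in each sex and at 6 h both compounds raised 1 of 5 in females, all with overlap. Apoa1, 1 of 5 hepatocyte markers, was higher in PCN females at 24 h and in both sexes after 5 days of PCN, and the bile duct marker Epcam, 1 of 3, was higher after 5 days in both sexes with PCN and in males with phenobarbital.

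With D3T 3 of 5 pericentral (5742 to 6903 against 8273 to 9658), 2 of 5 hepatocyte (30314 to 31943 against 32192 to 33905) and 2 of 5 macrophage markers were lower (1094 to 1363 against 1466 to 1751), with Csf1r at the floor on most arrays. In the same rats 1 of 4 endothelial (76 to 175 against 231 to 268) and 1 of 2 blood markers (2174 to 2759 against 3140 to 4451) were lower, and of 7 stellate cell and 6 lymphocyte markers 1 each rose and 1 each fell. D3T called 13.3 percent of all genes, so single calls in lists this short are not read as a shift of a cell type. Of 4 periportal markers 1, Cyp2f4, was higher, while the sum of the 4 did not rise and overlapped that of control rats (12907 to 13628 against 13118 to 13883).

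After 1, 3 and 7 days of Wy-14643 1 of 4 periportal markers was lower each time, Cyp2f4, and the summed level lay below that of every vehicle rat of its day (26898 to 28011 against 28398 to 32231 at 1 day, 25062 to 28254 against 29729 to 30579 at 3 days and 22909 to 27981 against 28796 to 30647 at 7 days). Of 5 pericentral markers, 0 were called at 1 and 3 days, though the sum at 3 days lay lower with no overlap (17344 to 21547 against 23469 to 29393), and 2 were lower at 7 days (15031 to 21860 against 24921 to 26425). At 7 days 3 of 7 macrophage (2316 to 2747 against 4032 to 6512), 2 of 5 hepatocyte (62536 to 64931 against 67580 to 70397), 2 of 2 blood (5616 to 8081 against 11138 to 14895) and 1 of 7 lymphocyte markers were lower and 1 of 4 bile duct markers was higher. At 1 day 1 of 5 hepatocyte markers was lower, and at 3 days 1 of 2 blood and 1 of 7 lymphocyte markers. Of all genes, 12.8, 11.9 and 14.6 percent were called at 1, 3 and 7 days. Single calls are not read as a shift of a cell type here either.

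With PFOA 1 of 5 pericentral (11424 to 15320 against 21164 to 23105), 1 of 5 hepatocyte (40661 to 44933 against 49479 to 50575), 1 of 5 endothelial (2579 to 2984 against 3774 to 5181), 2 of 8 stellate cell (2318 to 2955 against 3957 to 5014) and 1 of 8 macrophage markers (4839 to 7357 against 8889 to 11859) were lower. The bile duct marker Epcam, 1 of 4, was higher (747 to 874 against 292 to 434), and of the 4 periportal markers Sds was higher and Cyp2f4 lower, with overlap of the summed level (21518 to 27475 against 23625 to 24742). With PFOS in that study 1 of 8 macrophage markers was lower (6183 to 9111 against 8889 to 11859) and no periportal or pericentral marker was called, while the periportal sum lay higher with no overlap (27625 to 29574 against 23625 to 24742). Of all genes, 8.64 percent were called with PFOA and 0.654 percent with PFOS. The part of the marker shifts in the differences of the 9 genes was not tested.

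Over the 18 group means of the phenobarbital and PCN study, vehicle groups included, Cps1 and Ass1 ran closest together among the members (r = 0.93), followed by Arg1 with Gls2 (r = 0.76) and Asl with Hal (r = 0.74). Otc ran against Asl (r = -0.66). Among other genes of the array, the pattern most like that of Ass1 was Gnmt (r = 0.88), that of Cps1 was Xdh (r = 0.91), that of Otc was Echs1 (r = 0.91) and that of Asl was Aspg (r = 0.90). For Arg1 it was Cgrrf1 (r = 0.88), for Gls2 Ppm1b (r = 0.84), for Hal RT1-A3 (r = 0.91) and Cd36 (r = 0.91), for Tdo2 Imp3 (r = 0.77) and for Hpd Rps29 (r = 0.88). These describe 18 means and were not tested.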

How the data were processed

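Liver RNA of 129 rats was measured on 3 types of Affymetrix array, per the labels. The authors deposited linear intensity values per probe set, some below 0; how they were made is not given in the sources used here. Arrays give no read depth, so the number of rats limits the precision. Control probe sets were left out, and each study was handled alone. Arrays were quantile normalized where their medians spread over more than 0.5 log2 units, which left the 3-week PFOS study as deposited. Values below 0 were set to 0, and log2(value + 16) was fitted by group with limma 3.58.1 in R 4.3.3, without a block, over all probe sets and groups of a study. Adjusted p is Benjamini-Hochberg over all tested probe sets, with a threshold of 0.05. Rat 1003 was left out.

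A gene was read from the probe set with the highest mean among those with 1 symbol. All 9 members are named in each comparison, with up to 4 called genes of the wider lists, and 2 like genes per member were sought by correlation of group means. The members and lists were chosen with earlier results of these data known. Other settings tried were median scaling, pseudocounts of 1 and 64, a test without the dimmest 33.3 percent of probe sets, moderation with trend and robust options, a gene's average over its probe sets, a fit of the compared groups alone, rat 1003 kept, the removal of each array, and a replicate block for D3T, whose rat numbers are shared between the diets. Same-numbered D3T rats correlated at 0.27, -0.08, -0.09 and -0.20, so the numbers were not taken to pair them. The fitting script was tested on simulated data. Promoters and their motifs came from RefSeq tables of GRCr8, searched with Python 3.11.15.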

Additional observations from a re-analysis of the deposited data

Results flagged for a closer look

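Some rats stood far from the others of their group, by the gap to the nearest rat over the range of the group, a rule that chance meets in about 1 of 20 groups. The rule was applied to each of the 9 genes in every group of 4 or 5 rats. It was met at about the rate that chance gives, so these rats are listed without further meaning. For Cps1, vehicle female 1505 of the 6 h group read 12.03, the lowest of its group. For Otc, vehicle female 1514 of the 5-day group read 10.06, the lowest of its group, and phenobarbital male 4010 at 24 h read 11.12, the highest of its group. That same male read 11.68 for Ass1, again the highest. For Ass1, PCN female 5508 at 24 h read 10.43 and D3T rat 4 read 11.36, each the lowest of its group. For Hal, vehicle female 1503 at 6 h read 9.95 and control diet rat 2 read 9.11, both lowest, and PCN male 5004 at 6 h read 9.89, the highest.

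Other results differed between times of the same treatment by a test of the difference in limma. The 5-day groups had 5 doses and the 6 h groups 1, and with median scaling every PCN difference here lost its call. The effect of phenobarbital on Asl in males was -1.44 at 5 days minus 6 h. The effect of PCN in males was -0.84 for Ass1 and -0.56 for Hpd at 24 h minus 6 h, and -1.02 for Ass1, -0.52 for Hpd and -0.33 for Cps1 at 5 days minus 6 h. In females the effect of PCN at 5 days minus 6 h was -0.91 for Ass1 and -0.40 for Cps1. The male 6 h groups in these differences rest on 4 vehicle rats.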

How the results depend on the processing

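Of the differences of a member between treated and control rats, 38 were called and 133 were not. With 1 array left out in turn these 38 were fitted 305 times and lost the threshold 74 times, and the other 133 were fitted 1135 times and passed it 8 times. None of the 38 changed direction, either there or in the other alternatives run for it. With a pseudocount of 1, members called went from 0 to 1 for phenobarbital males at 6 h and from 3 to 1 for PFOA. Median scaling left 0 for phenobarbital males at 24 h, 2 at 5 days, 0 for phenobarbital females at 5 days, 0 for PCN males at 6 h and at 24 h, 1 at 5 days, 1 for PCN females at 24 h, 1 for D3T and 1 for PFOA. Over all treatment comparisons it lost 17 calls and gained 4, more than these counts show. Averaging the probe sets of a gene gave 1 for phenobarbital females at 24 h, 0 at 5 days, 0 for PCN males at 6 h, 1 at 24 h, 1 for PCN females at 24 h and 0 for PFOS. Fitting only the groups compared left 0 for phenobarbital males at 24 h, 2 at 5 days, 0 for phenobarbital females at 5 days, 0 for PCN males at 6 h and 24 h, 1 at 5 days, 2 for PCN females at 5 days, 2 for Wy-14643 at 1 day and 0 at 3 days. This fit has fewer samples, and it lost 20 calls and gained 0 in all. With rat 1003, 2 members were called for phenobarbital and 4 for PCN in males at 6 h, and Cps1 reversed, to 0.94 with PCN and 0.96 for vehicle females minus males.

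With 1 array left out in turn, members called ran from 0 to 1 for both compounds in males at 6 h and for phenobarbital females at 5 days, 1 to 3 for PCN males at 24 h, 3 to 5 for phenobarbital males and 3 to 4 for PCN females at 5 days, 2 to 3 for D3T, 1 to 2 for PFOA, 0 to 0 for PFOS, 1 to 4, 1 to 6 and 2 to 5 for Wy-14643 at 1, 3 and 7 days. They stayed at the reported number in the others. The replicate block took D3T from 3 members to 0 and from 1091 to 351 probe sets called, with numbers that do not pair the rats; 4 pairs were checked, and not every rat correlated best with its own number.

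Counts over all probe sets moved by more than 1.5 times in these cases. Median scaling took phenobarbital males at 24 h from 201 to 124. Fitting only the groups compared gave, for phenobarbital at 6 h, 24 h and 5 days, 18, 113 and 114 in males (from 64, 201 and 427) and 27, 155 and 84 in females (from 228, 356 and 217). For PCN it gave 4, 8 and 173 in males (from 166, 50 and 414), and in females 89 at 6 h (from 195) and 429 at 5 days (from 736). It gave 75 for PFOS (from 143), and 724 and 968 for Wy-14643 at 3 and 7 days (from 1710 and 2076). With rat 1003 the 6 h counts in males were 274 for phenobarbital and 933 for PCN. The 3-week PFOS comparison went from 0 to 17 with a pseudocount of 1 and to 25 without the dimmest 33.3 percent of probe sets. The cause of these shifts was not tested. All 9 members lay above the floor of 4.00 on every array used, and the 2 to 5 rats per group limit the precision.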
